A study of Mus musculus with 15 samples.

Results

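The genes described here encode enzymes of cholesterol synthesis and regulators of the pathway: Hmgcs1, Idi1, Fdps, Fdft1, Sqle and Msmo1 among the enzymes, and Insig1 and Srebf2 among the regulators. Members were taken by symbol, with every probe annotated to a listed symbol under its current or older name. Of the 8 genes listed, 7 had a probe and Fdft1 is not analysed here. The 7 genes had 11 probes, of which 10 passed the filter on dim probes, and all 7 were among the 8228 genes tested. The brightest probe stands for a gene, and it was detected on all 15 arrays for each of the 7.

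The arrays measured RNA from 2 mouse mammary carcinoma cell lines, 4T1 and 4TO7, derived from the same BALB/c tumour and known for high and low metastatic ability. The gene under study, Tm4sf1, encodes a surface protein of the L6 family, akin to tetraspanins; it was silenced in 4T1 or introduced into 4TO7. The 4T1 groups carried hairpin 1 (shTM4SF1-1), hairpin 5 (shTM4SF1-5) or a scrambled hairpin (shscramble), all from the lentiviral vector pLKO, and the 4TO7 groups carried TM4SF1 in the retroviral vector pBabepuro or pBabepuro without it. All 5 groups were stably transduced lines with no other agent or time point in the labels, and each had 3 arrays that the labels call biological replicates. The labels do not say whether each line is a clone or a pool of transduced cells, or whether the replicates came from separate cultures, so p-values measure only the spread between these arrays. Each array measured a whole culture, so fewer expressing cells and less RNA per cell cannot be told apart.

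Cholesterol is built from acetyl-CoA through mevalonate. Mevalonate is turned into isoprenoid units, these are joined to farnesyl diphosphate and then squalene, and squalene is oxidised, closed into lanosterol and trimmed to cholesterol. The genes of the pathway are switched on together by the transcription factor SREBP2, the product of Srebf2. When sterols are plentiful, its precursor, bound to the protein Scap, is held in the endoplasmic reticulum by the Insig proteins. When sterols run low, the precursor is released and cleaved, and SREBP2 enters the nucleus. Tumour cells use the same pathway for membranes and for lipid anchors on signalling proteins.

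SREBP2 binds a short sterol response element near the start of many of these genes, usually next to CCAAT boxes bound by NF-Y, so the upstream sequences of the members are shown. RefSeq windows of the 250 bases before the start (build GRCm38.p6) were found for 5 of the 8 genes (Hmgcs1, Idi1, Msmo1, Insig1 and Srebf2). Those of Hmgcs1, Msmo1 and Insig1, which were called in at least 1 comparison below, and of Srebf2, the regulator, follow, 5′ to 3′ on the gene's strand, with motif matches in capitals. The window of Hmgcs1 is chr13:119690101-119690350 (plus strand), that of Msmo1 chr8:64733579-64733828 (minus strand), that of Insig1 chr5:28071162-28071411 (plus strand) and that of Srebf2 chr15:82147019-82147268 (plus strand).
Hmgcs1: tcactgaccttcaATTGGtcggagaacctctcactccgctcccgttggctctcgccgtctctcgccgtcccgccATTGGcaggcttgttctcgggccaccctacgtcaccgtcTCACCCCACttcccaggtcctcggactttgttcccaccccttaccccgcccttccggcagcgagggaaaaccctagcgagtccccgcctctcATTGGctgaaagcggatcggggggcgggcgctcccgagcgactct
Msmo1: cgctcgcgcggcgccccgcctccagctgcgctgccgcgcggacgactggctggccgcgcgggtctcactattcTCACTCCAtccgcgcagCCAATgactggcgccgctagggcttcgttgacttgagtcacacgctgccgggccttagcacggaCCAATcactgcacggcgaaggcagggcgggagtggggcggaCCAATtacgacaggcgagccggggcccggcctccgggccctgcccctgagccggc
Insig1: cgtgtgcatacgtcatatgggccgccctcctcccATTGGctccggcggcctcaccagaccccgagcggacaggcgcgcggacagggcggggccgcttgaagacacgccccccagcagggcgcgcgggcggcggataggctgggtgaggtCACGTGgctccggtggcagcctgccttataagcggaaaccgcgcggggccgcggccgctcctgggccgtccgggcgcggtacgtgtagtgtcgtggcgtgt
Srebf2: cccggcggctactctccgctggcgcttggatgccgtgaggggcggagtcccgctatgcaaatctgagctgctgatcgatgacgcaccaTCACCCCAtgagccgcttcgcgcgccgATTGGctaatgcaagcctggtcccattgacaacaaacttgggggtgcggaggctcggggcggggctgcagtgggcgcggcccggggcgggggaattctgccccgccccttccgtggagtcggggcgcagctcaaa

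The letters TCACNCCAC, one form of the sterol response element, were searched on both strands and occurred in 1.05% of the 32851 mouse windows of this length. Hmgcs1 held a match, TCACCCCAC, at 137 to 129 bases before the start. The shorter form TCACNCCA, which overlaps the longer one and was added after the sequences had been read, occurred in 3.67% of windows. It was found in Hmgcs1, in Msmo1 as TCACTCCA at 177 to 170 bases and in Srebf2 as TCACCCCA at 162 to 155 bases before the start. CCAAT, written ATTGG where it lies on the other strand, occurred in 33.8% of windows, with 3 matches each in Hmgcs1 and Msmo1, 2 in Idi1 and 1 each in Insig1 and Srebf2. The E-box CACGTG occurred in 6.02% of windows and once in Insig1, at 101 to 96 bases before the start. A match of letters is not evidence of binding, and other forms of these elements were not searched.

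The targeted gene was checked first. Tm4sf1 averaged 6.94 ± 0.16 with hairpin 1 and 6.58 ± 0.57 with hairpin 5, against 8.07 ± 0.083 with scramble (mean ± SD of normalised log2 intensity, n = 3 each), a fall of 2.19-fold with hairpin 1 (limma adjusted p = 4.91e-04) and of 2.81-fold with hairpin 5 (adjusted p = 1.87e-05). In 4TO7 it averaged 8.41 ± 0.12 with TM4SF1 and 8.27 ± 0.41 with empty vector (log2 difference 0.14, 95% interval -0.26 to 0.54, adjusted p = 0.933), so no gain was detectable at this probe, whose position relative to the transgene the labels do not give. Of 4 epithelial markers with a probe, the keratins Krt8 and Krt18 were detected on every array of both lines, the keratin Krt7 on none of the 6 4TO7 arrays and all 9 4T1 arrays, and Cdh1 on none of the 6 4TO7 arrays and 1 of 9 4T1 arrays. Of 5 mesenchymal markers, Vim and Pdgfra were detected on every array and Col1a1 and Col1a2 on none. The fifth, Pdgfrb, was detected on 3 arrays with hairpin 1, 1 with hairpin 5, 2 with scramble and none of the 6 4TO7 arrays. All 3 leukocyte markers and all 3 endothelial markers with a probe were undetected on every array. Between 9436 and 10703 probes were detected per array at a detection p under 0.01, and mean raw intensity ran from 222 to 418.6.

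Few of the members were called with either hairpin, none with TM4SF1 and most between the lines. A gene is called here when its limma p, adjusted over all genes tested, is under 0.05. With hairpin 1, 1 of the 7 members was called, Hmgcs1, and it fell; 5.83% of all genes were called, 3.01% higher and 2.82% lower. With hairpin 5, 2 of 7 were called, Msmo1 and Sqle, and both fell; 3.52% of all genes were called, 1.34% higher and 2.19% lower. Msmo1 was also the 1 member of 7 called between hairpin 1 and hairpin 5, and it was higher with hairpin 1 (1.86% of all genes were called, 1.25% higher and 0.608% lower). With TM4SF1 in 4TO7, 0 of 7 were called by limma (0.0243% of all genes were called). Of the 7, 0 had an unadjusted p under 0.05, against 594 of 8228 genes. Between vector 4TO7 and scramble 4T1, 5 of 7 were called, 3 higher and 2 lower in 4TO7, which is to be read against 48.3% of all genes. The 2 hairpin comparisons share the scramble arrays, and the comparison of the lines shares the scramble and vector arrays and also differs in the vector system.

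**Figure D1:**
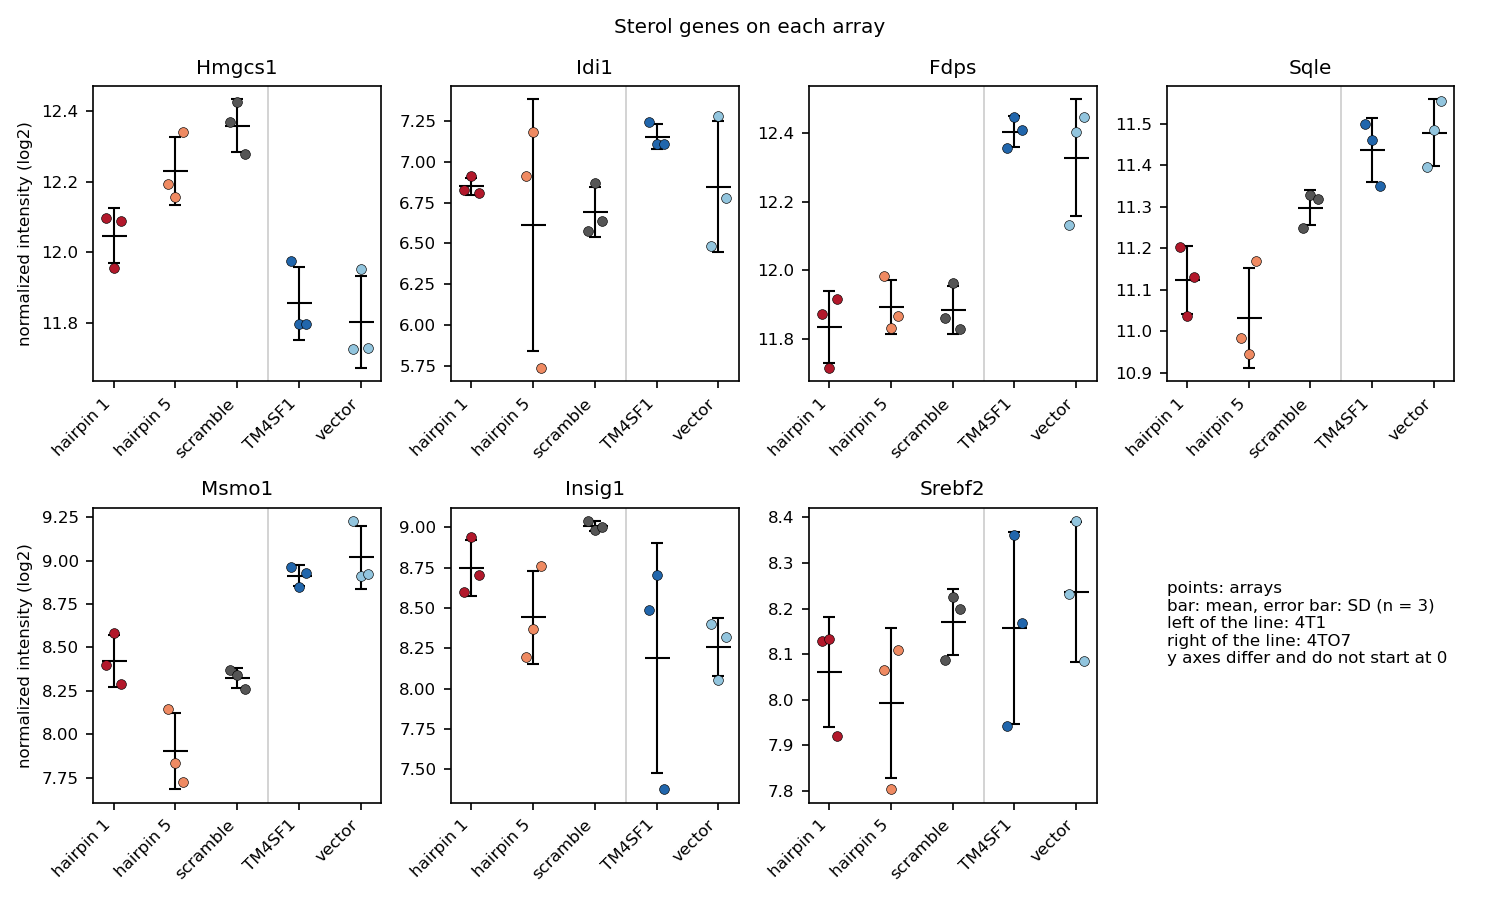
Normalised log2 intensity (vertical axes) of the brightest probe of each of the 7 members in each group (horizontal axes). Points are the 3 arrays of a group and bars are group means. Hmgcs1 with hairpin 1 lies below scramble, Msmo1 with hairpin 5 lies below the other 4T1 arrays, and Fdps, Sqle and Msmo1 are higher on all 6 4TO7 arrays than on all 9 4T1 arrays.

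Hmgcs1 encodes HMG-CoA synthase of the cytosol, which makes the precursor of mevalonate. Its log2 intensity was 12.10, 11.96 and 12.09 with hairpin 1, 12.19, 12.16 and 12.34 with hairpin 5, and 12.37, 12.43 and 12.28 with scramble. The hairpin 1 arrays all lay below the scramble arrays and also below the hairpin 5 arrays, while hairpin 5 and scramble overlapped. Hmgcs1 fell by 0.31 on the log2 scale with hairpin 1 (SE 0.077, 1.24-fold, limma adjusted p = 0.0143). This call was lost without scramble replicate 1 (adjusted p = 0.0549), scramble replicate 2 (0.0704) or hairpin 1 replicate 2 (0.0947). With hairpin 5 the difference was -0.13 (95% interval -0.29 to 0.031, adjusted p = 0.446), and between hairpin 1 and hairpin 5 it was -0.18 (adjusted p = 0.279), so a difference between the hairpins was not shown. In 4TO7 the gene had 11.97, 11.80 and 11.80 with TM4SF1 and 11.73, 11.95 and 11.73 with vector, which overlapped (log2 difference 0.054, adjusted p = 0.934). Vector 4TO7 cells had less Hmgcs1 signal than scramble 4T1 cells, by 1.47-fold (log2 difference -0.56, SE 0.077, adjusted p = 1.04e-06). Over all arrays the 4TO7 range, 11.73 to 11.97, just met the 4T1 range of 11.96 to 12.43, and it was a hairpin 1 array that lay lowest in 4T1.

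Idi1 and Fdps act in the middle of the pathway. Idi1 encodes isopentenyl diphosphate isomerase, which interconverts the isoprenoid units. Its log2 intensity was 6.83, 6.91 and 6.81 with hairpin 1, 6.92, 7.18 and 5.74 with hairpin 5, and 6.57, 6.87 and 6.64 with scramble. The groups overlapped, and hairpin 5 replicate 3 lay more than 1 log2 unit below the other hairpin 5 arrays. The difference from scramble was 0.16 with hairpin 1 (adjusted p = 0.789) and -0.080 with hairpin 5 (adjusted p = 0.915), and the hairpin 5 difference was 0.36 without hairpin 5 replicate 3 (adjusted p = 0.313). In 4TO7 Idi1 had 7.24, 7.11 and 7.11 with TM4SF1 and 6.49, 7.28 and 6.78 with vector, a difference of 0.31 with an SE of 0.23 (95% interval -0.17 to 0.79, adjusted p = 0.823). The Idi1 probe had a raw intensity of 144 to 273 and the widest intervals of the 7 members over all arrays.

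Fdps encodes farnesyl diphosphate synthase, whose product feeds both sterol synthesis and protein prenylation. It was 11.87, 11.72 and 11.92 with hairpin 1, 11.98, 11.83 and 11.87 with hairpin 5, and 11.86, 11.96 and 11.83 with scramble. All 3 groups overlapped, with log2 differences from scramble of -0.050 for hairpin 1 (95% interval -0.21 to 0.11) and 0.0094 for hairpin 5 (-0.15 to 0.17). Fdps was 12.36, 12.45 and 12.41 with TM4SF1 and 12.13, 12.40 and 12.45 with vector in 4TO7, and these overlapped (difference 0.076, adjusted p = 0.894). It was 1.36-fold higher in vector 4TO7 than in scramble 4T1 (log2 difference 0.44, SE 0.079, adjusted p = 3.63e-05). Its lowest 4TO7 array, at 12.13, lay above its highest 4T1 array, at 11.98.

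Sqle and Msmo1 belong to the branch that makes sterols alone. Sqle encodes squalene epoxidase, a rate-limiting enzyme of that branch. Its log2 intensity was 11.20, 11.04 and 11.13 with hairpin 1, 10.98, 10.95 and 11.17 with hairpin 5, and 11.25, 11.33 and 11.32 with scramble. All 6 hairpin arrays lay below the 3 scramble arrays, and the hairpin groups overlapped. Sqle fell by 0.27 on the log2 scale with hairpin 5 (SE 0.075, 1.20-fold, limma adjusted p = 0.0442), and with hairpin 1 the difference was -0.17 (adjusted p = 0.199). The difference between hairpin 1 and hairpin 5 was 0.091 (95% interval -0.062 to 0.24, adjusted p = 0.651). The hairpin 5 call held only just: it was lost in 13 of 20 alternative fits, including each of those without scramble replicate 1, 2 or 3 (adjusted p = 0.0799, 0.128 and 0.158) and without hairpin 5 replicate 1 (0.175) or 2 (0.184). In 4TO7 Sqle was 11.50, 11.46 and 11.35 with TM4SF1 and 11.40, 11.48 and 11.56 with vector (difference -0.041, adjusted p = 0.952). Vector 4TO7 cells had 1.13-fold more Sqle signal than scramble 4T1 cells (log2 difference 0.18, SE 0.075, adjusted p = 0.0482), and this call was lost in 12 of 20 alternatives, among them the fits without any of the scramble arrays (adjusted p = 0.145, 0.0677 and 0.0702) and without vector replicate 2 (0.0952) or 3 (0.176).

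A second, dimmer Sqle probe gave other values. It read 9.05, 9.54 and 9.39 with hairpin 1, 9.17, 9.43 and 9.73 with hairpin 5, and 9.53, 9.64 and 9.61 with scramble, so hairpin 5 replicate 3 was the highest of these arrays. Its difference from scramble was -0.27 with hairpin 1 (limma adjusted p over all probes = 0.337) and -0.15 with hairpin 5 (0.700). Between the lines it had the opposite sign to the brighter probe, with 9.47, 9.12 and 9.75 in vector 4TO7 (log2 difference from scramble 4T1 -0.15, adjusted p = 0.415), and the groups overlapped. The higher Sqle level in 4TO7 is therefore a result of 1 of its 2 probes. With limma p adjusted over all probes, the brighter probe had 0.0540 with hairpin 5 and 0.0528 between the lines. On that scale neither probe was called.

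Msmo1, once called Sc4mol, encodes the methylsterol monooxygenase that removes methyl groups after lanosterol. Its log2 intensity was 8.40, 8.59 and 8.29 with hairpin 1, 8.15, 7.83 and 7.73 with hairpin 5, and 8.37, 8.34 and 8.26 with scramble. The hairpin 5 arrays lay below all 6 other 4T1 arrays, and hairpin 1 overlapped scramble. Msmo1 fell by 0.42 on the log2 scale with hairpin 5 (SE 0.11, 1.34-fold, limma adjusted p = 0.0353), while with hairpin 1 the difference was 0.10 (95% interval -0.13 to 0.33, adjusted p = 0.698). The difference between the hairpins was itself called, with Msmo1 1.44-fold higher with hairpin 1 than with hairpin 5 (log2 difference 0.52, SE 0.11, adjusted p = 0.0109). Leaving out any scramble array ended the call against scramble (adjusted p = 0.124, 0.0958 and 0.0730), as did leaving out hairpin 5 replicate 2 (0.117) or 3 (0.137). The call between the hairpins was lost without hairpin 1 replicate 2 (0.0961) or hairpin 5 replicate 2 (0.0550) or 3 (0.0530). In 4TO7 Msmo1 was 8.97, 8.85 and 8.93 with TM4SF1 and 9.23, 8.91 and 8.92 with vector (difference -0.11, adjusted p = 0.899). Vector 4TO7 cells had 1.62-fold more Msmo1 signal than scramble 4T1 cells (log2 difference 0.70, SE 0.11, adjusted p = 1.09e-05). Across the 15 arrays the 4TO7 range of 8.85 to 9.23 lay wholly above the 4T1 range of 7.73 to 8.59.

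**Figure D2:**
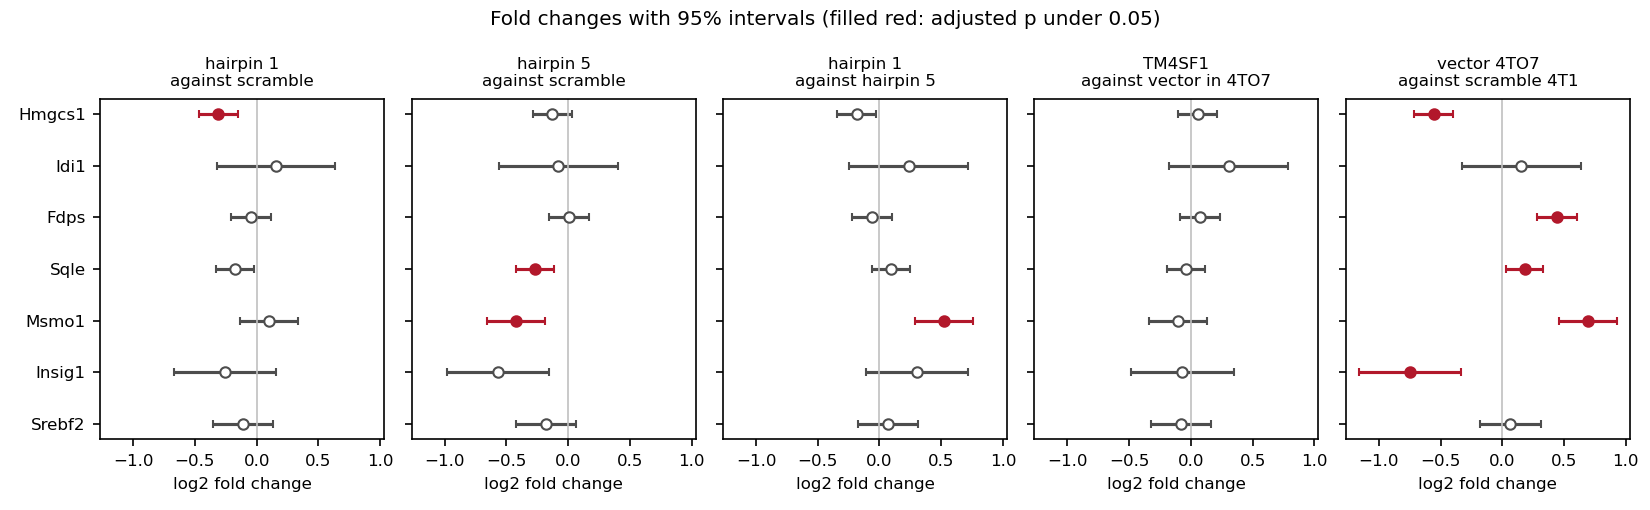
Log2 fold changes (horizontal axis) of the 7 members (vertical axis) in each comparison, with 95% intervals from limma; filled points are called at an adjusted p under 0.05. The members lie within 0.57 of 0 with either hairpin and within 0.31 of 0 with TM4SF1, and the comparison of the lines holds 5 of the 9 called values.

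Insig1 and Srebf2 regulate the pathway. Insig1 encodes a sterol-sensing anchor of the SREBP complex in the endoplasmic reticulum and is itself an SREBP target. Its brightest probe read 8.60, 8.94 and 8.71 with hairpin 1, 8.20, 8.37 and 8.76 with hairpin 5, and 9.04, 8.98 and 9.001 with scramble. All 6 hairpin arrays lay below the scramble arrays. The log2 difference was -0.26 with hairpin 1 (SE 0.20, adjusted p = 0.533) and -0.57 with hairpin 5 (SE 0.20, 95% interval -0.98 to -0.15, adjusted p = 0.140), so neither was called although the groups did not overlap. The hairpin 5 value was called in 2 of 20 alternatives, with array weights (adjusted p = 0.0332) and with only the compared arrays in the fit (0.0160). In 4TO7 Insig1 read 8.49, 8.71 and 7.38 with TM4SF1 and 8.40, 8.06 and 8.32 with vector. TM4SF1 replicate 3 was the lowest of the 15 arrays and more than 1 log2 unit below its group, and the difference changed sign with it, being -0.068 over all arrays (adjusted p = 0.974) and 0.34 without that array (adjusted p = 0.660). Vector 4TO7 cells had 1.68-fold less Insig1 signal than scramble 4T1 cells (log2 difference -0.75, SE 0.20, adjusted p = 0.00311).

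Of the 3 detected Insig1 probes, 2 gave close fold changes and the third did not. The second probe read 8.23, 8.74 and 8.28 with hairpin 1, 8.07, 8.18 and 8.26 with hairpin 5, and 8.92, 8.60 and 8.60 with scramble. Its difference from scramble was -0.29 with hairpin 1 and -0.54 with hairpin 5 (limma adjusted p over all probes = 0.396 and 0.0889), and between the lines it was -0.65 (adjusted p = 0.00238). It was also lowest on TM4SF1 replicate 3, at 7.51. The third probe stayed within 8.04 to 8.71 on all arrays, with a difference of -0.11 for hairpin 1, -0.13 for hairpin 5 and -0.13 between the lines (adjusted p = 0.728, 0.712 and 0.449). The remaining Insig1 probe was detected on 0 of 15 arrays. All 4 probes carry the same RefSeq transcript in the platform annotation, and which part of the transcript each reads was not analysed here.

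**Figure D3:**
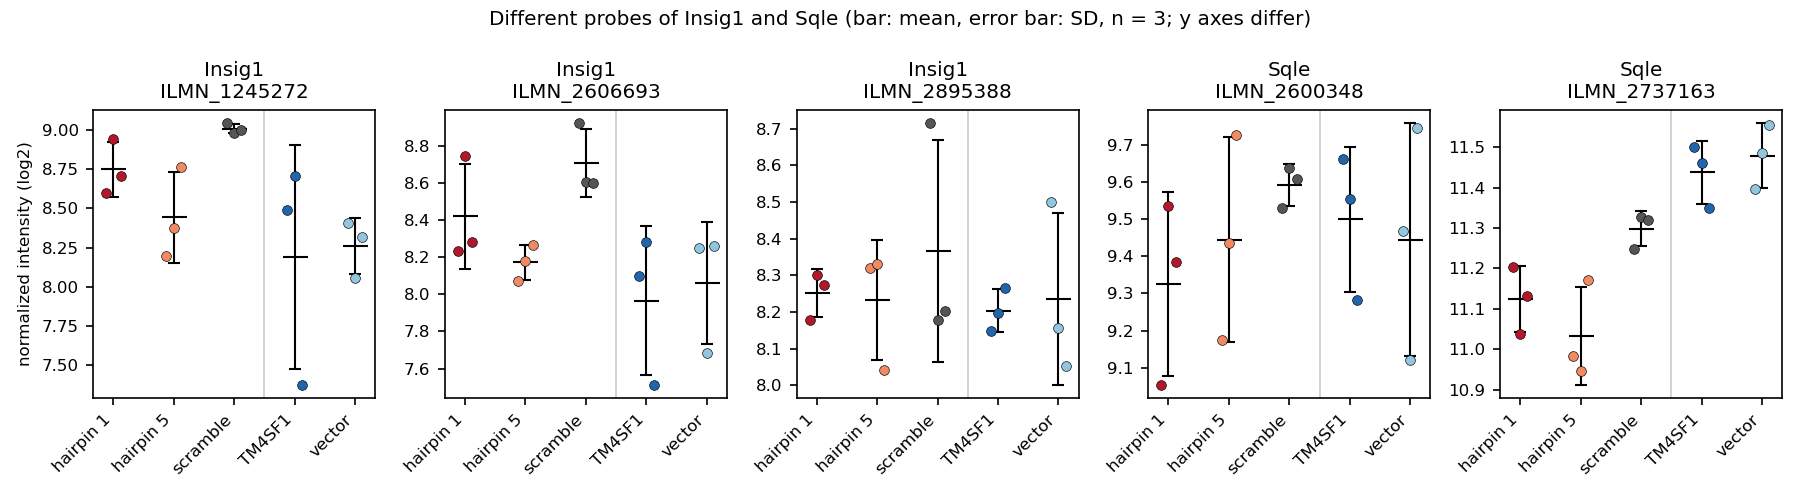
Normalised log2 intensity (vertical axes, each with its own scale) of the 3 detected Insig1 probes and the 2 Sqle probes in each group (horizontal axes). Points are the 3 arrays of a group, long bars the means and error bars the SD. On the first 2 Insig1 probes the hairpin 5 points lie below the scramble points, the third shows overlapping groups throughout, and the last Sqle probe (the brighter) separates the lines while the other does not.

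Srebf2 encodes the precursor of SREBP2. Its log2 intensity was 8.13, 8.13 and 7.92 with hairpin 1, 8.06, 7.80 and 8.11 with hairpin 5, and 8.09, 8.22 and 8.20 with scramble, and the groups overlapped. The log2 difference from scramble was -0.11 with hairpin 1 (95% interval -0.35 to 0.14, adjusted p = 0.684) and -0.18 with hairpin 5 (-0.42 to 0.067, adjusted p = 0.504). In 4TO7 Srebf2 was 7.94, 8.36 and 8.17 with TM4SF1 and 8.23, 8.39 and 8.08 with vector. That difference was -0.079 (adjusted p = 0.939), and the difference between vector 4TO7 and scramble 4T1 was 0.066 (95% interval -0.18 to 0.31, adjusted p = 0.683). Srebf2 thus had the smallest difference between the lines among the 7 members. The activity of SREBP2, which is set by cleavage of the protein, is not measured by its transcript.

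Most members had negative log2 differences with either hairpin, but only 3 in all were called. With hairpin 1, 5 of 7 log2 differences were negative, against 4089 of 8228 over all genes. Their median was -0.11, against 0.0017 over all genes. With hairpin 5, 6 of 7 were negative, against 4006 of 8228 over all genes. The median was -0.18, against 0.0057 over all genes. Both comparisons use the same scramble arrays, so the second count does not repeat the first independently. The members whose groups did not overlap were Hmgcs1, Sqle and Insig1 with hairpin 1 (3 of 7, against 25.1% of all genes) and Msmo1, Sqle and Insig1 with hairpin 5 (3 of 7, against 20.8%). Between hairpin 1 and hairpin 5, Hmgcs1 and Msmo1 did not overlap and took opposite signs (2 of 7, against 17.1% of all genes). With TM4SF1 in 4TO7 the median was -0.041, and the groups of every member overlapped (0 of 7, against 12.7% of all genes). Between the lines, 5 of 7 members did not overlap, against 57% of all genes, and the median was 0.15, against 0.034 over all genes. The ranges over all 6 4TO7 and all 9 4T1 arrays were apart for Fdps, Sqle and Msmo1 (3 of 7, against 32.5% of all genes). Of the called members, Fdps, Sqle and Msmo1 were higher and Hmgcs1 and Insig1 lower in vector 4TO7. Over all genes, 25.6% were called higher and 22.8% lower. The dimmer Sqle probe took the opposite sign. The third detected Insig1 probe differed by only -0.13 (limma adjusted p over all probes = 0.449).

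Of 16 other enzymes of sterol and isoprenoid synthesis listed, 11 were tested. With hairpin 1, 1 of the 11 was called, against 5.83% of all genes. It was Ebp, which encodes a sterol isomerase and was higher. Ebp averaged 9.79 ± 0.062 with hairpin 1 and 9.48 ± 0.19 with scramble (SD, n = 3 each, log2 difference 0.31, limma adjusted p = 0.0423). The Ebp call was lost in 11 of 20 alternatives, among them those without scramble replicate 2 (adjusted p = 0.0794) or 3 (0.298) and without hairpin 1 replicate 1 (0.138), 2 (0.0710) or 3 (0.119). With hairpin 5 Ebp averaged 9.78 ± 0.062 (difference 0.30, limma adjusted p = 0.0729). In that comparison 0 of the 11 were called, against 3.52% of all genes. An unadjusted p under 0.05 was found for 1 of the 11, against 1289 of 8228 genes. Between the hairpins 0 of 11 were called, against 1.86% of all genes, and 0 had an unadjusted p under 0.05, against 1099 of 8228. The list's medians were -0.072 with hairpin 1 and -0.10 with hairpin 5. With TM4SF1 in 4TO7, 0 of 11 were called by limma, against 0.0243% of all genes. Of the 11, 2 had an unadjusted p under 0.05, against 594 of 8228 genes. Between the lines 6 of 11 were called, 5 higher and 1 lower in vector 4TO7 than in scramble 4T1, against 25.6% and 22.8% of all genes.

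The enzymes higher in vector 4TO7 act before and after squalene. Mvd, the last enzyme of mevalonate conversion, averaged 7.73 ± 0.087 in vector 4TO7 and 6.92 ± 0.29 in scramble 4T1 (log2 difference 0.81, adjusted p = 5.58e-04). Lss, which closes squalene epoxide into lanosterol, averaged 9.21 ± 0.20 and Hsd17b7, a later sterol reductase, 9.95 ± 0.076 in vector 4TO7, against 8.49 ± 0.039 for Lss and 9.44 ± 0.098 for Hsd17b7 in scramble 4T1 (log2 differences 0.71 and 0.52, adjusted p = 2.76e-06 and 4.66e-06). Tm7sf2, a sterol reductase, was detected on 3 of 3 vector arrays and 0 of 3 scramble arrays and was at least 1.52-fold higher in vector 4TO7 (adjusted p = 2.92e-04), a bound taken from the lowest detected signal of each scramble array. Cyp51, the lanosterol demethylase, was the fifth, named after its value was seen (log2 difference 0.24, adjusted p = 0.0458), and its call was lost in 14 of 20 alternatives, including each fit without 1 of the scramble or vector arrays (adjusted p = 0.0608 to 0.120). The lower one was Ebp, at 8.61 ± 0.086 in vector 4TO7 and 9.48 ± 0.19 in scramble 4T1 (log2 difference -0.88, adjusted p = 8.86e-09).

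Of 16 genes of sterol sensing, transport and storage, 9 were tested. With hairpin 1, 1 of the 9 was called, against 5.83% of all genes. It was Insig2, the paralog of Insig1 that SREBP does not induce in the way it induces Insig1. Insig2 was higher, with 9.39 ± 0.021 with hairpin 1 and 9.02 ± 0.090 with scramble (log2 difference 0.37, adjusted p = 0.00866), and with hairpin 5 it averaged 9.24 ± 0.12 (difference 0.22, adjusted p = 0.194). The hairpin 1 call was lost in 3 of 20 alternatives: median scaling (adjusted p = 0.961), without scramble replicate 2 (0.0631) and leaving out each group's dimmest array (0.0594). None of the 9 were called by limma with hairpin 5, between the hairpins or with TM4SF1, against 3.52%, 1.86% and 0.0243% of all genes. An unadjusted p under 0.05 was found for 1, 0 and 0 of the 9, against 1289, 1099 and 594 of 8228 genes. The list's medians were -0.037 with hairpin 1 and 0.098 with hairpin 5. Between the lines 3 of 9 were called, against 48.3% of all genes. Erlin1, which helps degrade sterol pathway proteins, was higher in vector 4TO7 than in scramble 4T1 (log2 difference 0.48, adjusted p = 0.00165), and Srebf1, which encodes the SREBP of fatty acid synthesis, was lower (-0.86, adjusted p = 4.07e-04). Insig2 was lower too (-0.24, adjusted p = 0.0206), a call lost in 6 of 20 alternatives, among them those without scramble replicate 1 (0.0755) or 3 (0.0706) and without vector replicate 2 (0.0538) or 3 (0.0537).

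**Figure D4:**
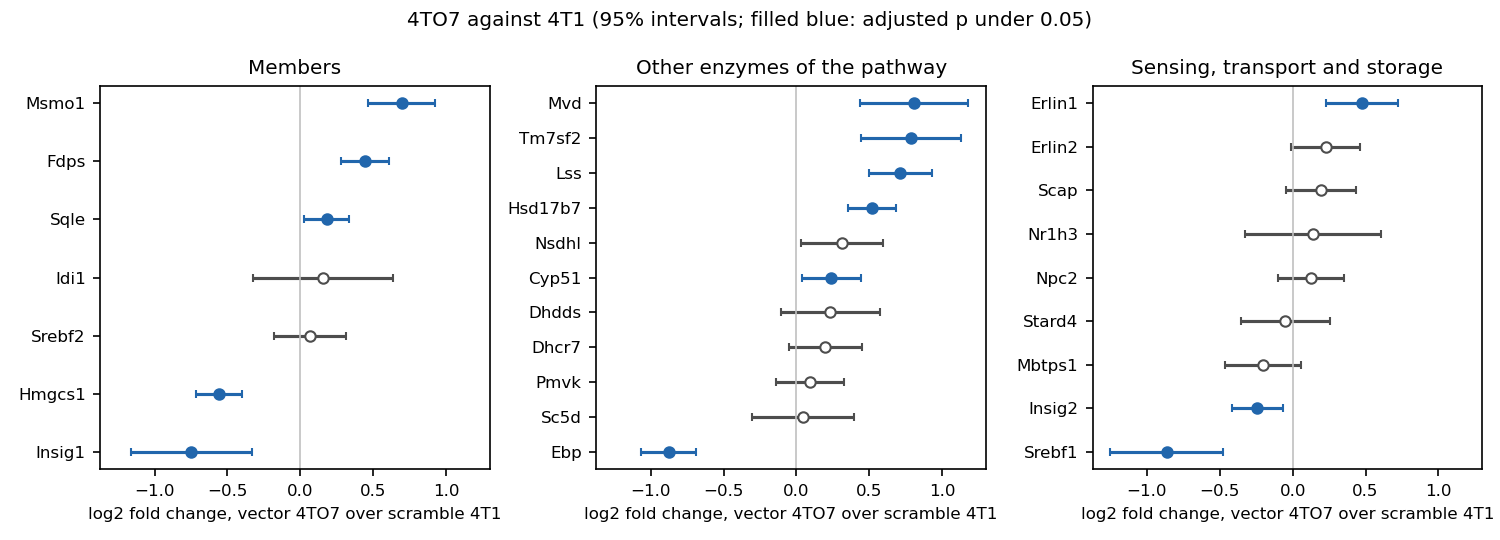
Log2 difference between vector 4TO7 and scramble 4T1 (horizontal axes) of the members, the other sterol and isoprenoid enzymes and the genes of sterol sensing, transport and storage (vertical axes), with 95% intervals from limma; filled points are called at an adjusted p under 0.05. Called genes lie on both sides of 0 in each of the 3 lists. Tm7sf2 was undetected in scramble 4T1 and Nr1h3 in both groups, so their plotted values are no measured folds.

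The correlations between members over the arrays were mixed in sign. After each gene was centred on its mean in its line, Pearson's r of the 21 pairs of members over the 15 arrays ran from -0.392 to 0.612 with a median of 0.199, and 14 of 21 were above 0. The highest were Insig1 with Sqle (0.612) and Hmgcs1 with Sqle (0.546). With each group's mean removed, the median was 0.0521. These are descriptions over arrays that share groups and normalisation. Other gene pairs were not taken for comparison, so whether the members moved together was not tested. The genes whose line-centred levels were most like the members' mean profile over the 15 arrays were Adssl1 (r = 0.883), Tnfaip2 (0.828), Gpr19 (0.825), H1f2 (0.824), Col6a1 (0.821), Pcgf3 (0.815), Hhip (0.812) and Abcc3 (0.803). All 8 had lower means with both hairpins than with scramble, a difference that centring on the line leaves in r. They were picked for the highest r, and shared regulation was not tested. None of these 8 belongs to the pathway lists, where the most alike was Cyp51 (r = 0.63, rank 133 of 8228) and the least Insig2 (r = -0.598). With each group's mean removed, r with the mean raw intensity of the array was 0.532 for Hmgcs1, 0.375 for Sqle, 0.28 for Insig1 and -0.284 for Msmo1, and its part in the results was not tested beyond the fits with brightness as a covariate and without the dimmest arrays.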

How the data were processed

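RNA of 15 samples in 5 groups of 3 was hybridised to Illumina mouse BeadChips after Trizol extraction and labelling as biotinylated cRNA, per the labels' protocols. Per the file headers, the deposited matrix holds for 25697 probes an intensity averaged over beads, neither normalized nor background-subtracted, with its bead standard error, the count of beads averaged and a detection p-value. Per the submitters' processing notes the software was GenomeStudio, of unstated version. A second deposited table, used as an alternative, holds the authors' processed intensity on a linear scale; its ranks matched the raw signal of each array (r = 1), array medians were 8.34 to 8.45 and the lowest value was -18.46, so it was background-subtracted and not centred, by a method that stays unknown. For the alternative fit, values of this second table below 16 were raised to 16, a floor above its array medians. All columns matched a sample by name (0 of no sample).

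The intensities were corrected with limma's normexp method, which took the negative controls from the detection p-values, with an offset of 16, then quantile normalized and expressed as log2. A probe was kept if 3 or more arrays had a detection p below 0.01 (11109 probes), and each symbol was represented by its brightest probe, giving 8228 genes (7576 named). Symbols were those of the platform annotation: 23978 probes had 1 symbol, 0 several and 1719 none; 23962 named probes matched RefSeq for GRCm38.p6 and 0 symbols changed. Paralogs that share sequence cannot be told apart by this annotation.

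A group-means model over all arrays was fitted with limma 3.58.1 in R 4.3.3 with a mean-variance trend (10 residual and 16.07 prior degrees of freedom). All p-values of genes are from limma, two-sided, and adjusted by the Benjamini-Hochberg method over all genes of a comparison (over all probes where several probes of a gene are given); an adjusted p under 0.05 is a call. The median SE of a log2 fold change was 0.13. Precision is limited by the few arrays: the smallest p of an exact permutation test with 3 arrays a side is 0.1. The fit was also run on simulated data, whose outcome is not given here. The bead standard error of the members was 4.36 to 6.63% of the signal in the median array. Replicate numbers of the labels did not pair the arrays (correlations of deviations -0.146 to 0.0631), so no block was used.

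The members and lists were chosen with earlier results of these data known. Named genes were all members, Tm4sf1, up to 4 called genes per direction of each pathway list and the 8 genes most like the members' mean profile. Alternatives changed the background correction, offset, normalization, filter, probes, arrays, trend, weights and block, one at a time.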

Additional observations from a re-analysis of the deposited data

Results flagged for a closer look

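Msmo1 was picked out because its response differed between the hairpins. It averaged 8.42 ± 0.15 with hairpin 1 and 7.90 ± 0.22 with hairpin 5 (mean ± SD of normalised log2 intensity, n = 3 each), a log2 difference of 0.52 by limma (SE 0.11, adjusted p = 0.0109), and all 3 hairpin 1 arrays were higher than all 3 hairpin 5 arrays. Over the 20 alternatives the log2 difference ran from 0.40 to 0.64 and the adjusted p from 0.00362 to 0.999, the highest with median scaling, and the call was lost in 5 of them. No explanation was tested.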

How the results depend on the processing

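Each of the 7 members was refitted in each of the 5 comparisons under 20 alternatives, 700 values in all: 653 kept their side of the threshold, of which 626 also kept their sign and 27, all uncalled, changed it; 45 lost a call, 2 gained one and 0 of the called values reversed. The called differences between the lines of Hmgcs1, Fdps, Msmo1 and Insig1 were kept in all 20. Of the other 5 calls, Hmgcs1 with hairpin 1 was lost in 6, Msmo1 with hairpin 5 in 9, Sqle with hairpin 5 in 13, Msmo1 between the hairpins in 5 and Sqle between the lines in 12; the cause was not tested. Leaving out each array in turn gave 0 to 1 called members with hairpin 1, 0 to 1 with hairpin 5 and 0 to 1 between the hairpins, and 4 to 5 between the lines; over all genes it gave 275 to 356, 145 to 258 and 81 to 159 calls in the first 3 comparisons and 1 to 3 with TM4SF1, against 480, 290, 153 and 2. Median scaling left 0 members called with hairpin 1, 0 with hairpin 5 and 0 between the hairpins, and 47, 25, 2, 0 and 2259 genes in the 5 comparisons in the order above, with the lines last (3977 with quantile normalization); 0% of its 2 calls between the hairpins were higher, against 67.3%. Without a filter on dim probes 318, 170 and 101 genes were called with hairpin 1, with hairpin 5 and between the hairpins, and 0 members with hairpin 5. Testing every probe, the replicate block, only the compared arrays, array brightness as a covariate and leaving out the dimmest array of each group each gave 1 called member with hairpin 5, which with only the compared arrays was Insig1 (adjusted p = 0.0160), while Msmo1 (0.0703) and Sqle (0.0754) were lost; leaving out the dimmest arrays gave 0 with hairpin 1 and 182, 98 and 41 genes in the first 3 comparisons. The brightness covariate, the omission of the dimmest arrays and the refits of the pathway list genes were chosen after seeing the data. Without a variance trend 0 members were called with hairpin 1, 0 with hairpin 5 and 0 between the hairpins, 84 genes between the hairpins and 0 with TM4SF1, where only the compared arrays also gave 0. With the replicate number as a block (replicate block), whose numbers did not pair the arrays, 443, 256, 140, 2 and 3931 genes and 1, 1, 1, 0 and 4 members were called, and Sqle was lost with hairpin 5 (adjusted p = 0.0607) and between the lines (0.0568). A slide block was not run, since the files name no slide. Signal over background limits the dimmest genes: Tm7sf2 in scramble 4T1 has only a bound.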
